A study of Mus musculus with 6 samples.

Results

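Cells build cholesterol from acetyl-CoA through the mevalonate pathway and then through squalene and lanosterol, and they build fatty acids from the same precursor with acetyl-CoA carboxylase and fatty acid synthase. Both branches are transcribed under the sterol regulatory element binding proteins SREBP1 and SREBP2, which SCAP escorts out of the endoplasmic reticulum when sterols are scarce and which INSIG proteins hold back when sterols are plentiful. Lymphocytes switch both branches on after antigen receptor stimulation, when growth calls for new membrane. The 34 genes followed here are 18 sterol enzymes, 10 fatty acid enzymes, 5 SREBP regulators and the sterol carrier Stard4, named as a list and found by symbol among the 19977 genes of the deposited table. Of these 34 genes, 32 had a mean of at least 1 FPKM (fragments per kilobase of transcript, scaled to sequencing depth) and were tested. Scd1 and Fads2 lay under that minimum.

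The mice were wild-type C57BL/6, and their CD4+ T cells were taken from spleen and lymph nodes, sorted by flow cytometry and stimulated for 6 hours through CD3 and CD28. The groups were old mice of 11 months (3 libraries) and young mice of 6 to 8 weeks (3 libraries), with the same strain, genotype and stimulation in both. The sample titles code the young group as X1M, and the 6 to 8 weeks given here are those of the protocol. There was no unstimulated group, so a level below is one in activated cells. Whether libraries are separate animals is not said in the labels, so p-values measure only the spread between these libraries, which may be technical. Totals were 16932551 to 18708205 expected counts per library. Levels are given as CPM, counts scaled to a common library total after TMM adjustment, and a log2 difference is old minus young.

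Young replicate 1 stood apart from the other libraries, and this touches most of the results that follow. Across genes its log2 CPM correlated at 0.924 and 0.911 with young replicates 2 and 3, while the correlation between those 2 was 0.977 (across genes, which do not count as replicates). It held 684 CPM of Il7r, the interleukin-7 receptor of resting T cells, against 27.6 to 114 CPM in the other libraries. The 10 genes fixed as early activation markers had a mean log2(CPM + 1) of 8.90, 9.07 and 9.46 in old replicates 1 to 3 and of 7.72, 8.78 and 8.48 in young replicates 1 to 3, and all 10 were lowest in young replicate 1. Results are therefore given with all 6 libraries and without that library. It was singled out after its values were seen, so p-values from fits without it may be too small. Without it the activation markers still had a median log2 difference of 0.67, with 2 of the 10 negative. Of the 10, edgeR then called 4 higher in old, beside 5.86% of all genes. The part that activation state plays in the results was not tested. In bulk RNA, fewer cells of a type and less RNA per cell cannot be told apart. Cd4 stood at 406 to 630 CPM in old and 320 to 639 CPM in young libraries, with Cd3e at 430 to 570 and 373 to 497 CPM. Summed over the list, 5 B cell markers gave 9.72 to 18 CPM in old and 11.6 to 34.2 CPM in young libraries, and 7 myeloid markers gave 6.75 to 18.9 and 19.9 to 42.9 CPM. Cd8a and Cd8b1 of CD8 T cells summed to 11.3 to 14.6 CPM in old and 16.6 to 27.5 CPM in young libraries, which did not overlap, and Cd8b1 had a log2 difference of -0.84 ± 0.26 (adjusted p = 0.266 in edgeR). The myeloid sums did not overlap either, and the part of these markers in the results was not tested. Of the erythroid markers none reached the minimum of 1 FPKM. Natural killer cell markers summed to 30.4 to 37.9 and 48.0 to 99.8 CPM, nearly all of it Eomes, with Ncr1, Klrb1c and Klre1 under 1 CPM throughout. Fat cells, which surround lymph nodes and carry many lipid enzymes, left almost no trace, with Adipoq at most 0.637, Plin1 at most 0.108 and Fabp4 at most 0.0579 CPM in a library, although Pecam1 of the same list was at 87.9 to 99.2 and 67.0 to 239 CPM.

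SREBPs bind sterol regulatory elements close to the start of their target genes and do so together with NF-Y, which binds CCAAT boxes, and with Sp1. The RefSeq table of promoters (250 bases before to 50 after the annotated start, GRCm38.p6) held 27 of the 34 genes, and a match in any of a gene's promoters counted for the gene. The 5 promoters printed here belong to the sterol genes called lower in old libraries once young replicate 1 was set aside, apart from Fdps. Each is written 5′ to 3′ on the gene's strand, and capitals mark the letters CCAAT, CACNCCAC or TCACNCCAC read on either strand, where CCAAT on the other strand reads ATTGG.
Hmgcs1 promoter, chr13:119690101-119690400, plus strand: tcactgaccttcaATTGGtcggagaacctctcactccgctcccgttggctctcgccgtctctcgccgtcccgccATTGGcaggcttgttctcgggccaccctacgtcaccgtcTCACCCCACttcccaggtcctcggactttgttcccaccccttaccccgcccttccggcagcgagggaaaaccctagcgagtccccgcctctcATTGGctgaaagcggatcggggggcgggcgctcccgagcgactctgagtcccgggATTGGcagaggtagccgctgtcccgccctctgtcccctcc
Mvk promoter, chr5:114444019-114444318, plus strand: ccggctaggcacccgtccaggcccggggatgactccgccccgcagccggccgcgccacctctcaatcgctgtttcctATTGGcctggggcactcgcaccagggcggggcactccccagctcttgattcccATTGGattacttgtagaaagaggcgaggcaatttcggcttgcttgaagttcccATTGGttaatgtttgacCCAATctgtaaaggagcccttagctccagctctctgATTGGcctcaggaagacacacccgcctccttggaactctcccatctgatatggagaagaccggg
Mvd promoter, chr8:122443373-122443672, minus strand: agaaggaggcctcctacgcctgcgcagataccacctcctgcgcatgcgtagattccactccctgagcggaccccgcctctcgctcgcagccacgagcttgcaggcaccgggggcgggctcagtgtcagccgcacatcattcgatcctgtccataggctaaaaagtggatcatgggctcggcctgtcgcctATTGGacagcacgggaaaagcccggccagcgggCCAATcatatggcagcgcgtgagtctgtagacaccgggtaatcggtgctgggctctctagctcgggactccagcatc
Idi1 promoter, chr13:8885356-8885655, plus strand: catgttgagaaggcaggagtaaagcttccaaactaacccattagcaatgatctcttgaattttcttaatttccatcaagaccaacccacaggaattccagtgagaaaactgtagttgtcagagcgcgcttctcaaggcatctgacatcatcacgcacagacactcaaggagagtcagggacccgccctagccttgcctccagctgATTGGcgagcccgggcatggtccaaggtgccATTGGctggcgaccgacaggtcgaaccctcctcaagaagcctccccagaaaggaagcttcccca
Cyp51 promoter, chr5:4104648-4104947, minus strand: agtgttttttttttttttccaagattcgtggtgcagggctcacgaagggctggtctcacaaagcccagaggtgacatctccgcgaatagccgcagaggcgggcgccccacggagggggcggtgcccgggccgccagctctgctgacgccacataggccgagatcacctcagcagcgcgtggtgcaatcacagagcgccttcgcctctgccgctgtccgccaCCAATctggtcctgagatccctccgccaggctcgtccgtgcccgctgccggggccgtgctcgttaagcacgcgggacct
TCACNCCAC, a form of the sterol regulatory element, was present in the Hmgcs1 promoter from position -137, counted from the annotated start at 1, and in no promoter of the other genes, against 1.28% of 8510 tested genes with a promoter. Its core CACNCCAC, contained in the longer form, was in Acat2, Hmgcs1 and Insig1, and in 7.51% of tested genes. CCAAT was in the promoters of 14 of 15 sterol enzymes (93.3%), of 4 of 7 fatty acid enzymes (57.1%) and in 43.5% of tested genes. Hmgcs1 carried it at positions -237, -176, -45 and 11, Mvk at 5 positions between -173 and -14, Idi1 at -45 and -14, Mvd at -60 and -27, and Cyp51 at -29. GGGCGG, a letter form of the Sp1 box, was in the promoters of 14 of 15 sterol enzymes, of 3 of 7 fatty acid enzymes (42.9%) and in 68.9% of tested genes. CACGTG, the E-box, was in the promoters of 6 of 27 genes (22.2%) and in 12.2% of tested genes. These are matches of letters and not sites of binding, and the absence of a match says only that these letters are not in this window.

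Per transcript length, the regulators and the enzymes spanned a wide range of levels. Srebf2, which encodes the SREBP that drives sterol genes, had the highest mean of the 34 genes at 74.6 FPKM over the 6 libraries. Elovl1, an elongase of very long chains, followed at 64.6 FPKM, Fdps at 61.0 and Acly, which supplies cytosolic acetyl-CoA from citrate, at 51.2 FPKM. Among sterol enzymes the lowest were Tm7sf2, a sterol reductase, at 3.14 FPKM and Hsd17b7, a sterol ketone reductase, at 3.80 FPKM. The stearoyl-CoA desaturases differed in level, with Scd2 at 4.42 ± 0.687 FPKM in old libraries against 4.71 ± 0.683 FPKM in the young ones and Scd1 at 0.190 ± 0.0557 against 0.193 ± 0.150 FPKM (SD, n = 3 each). Scd1 and Scd2 are close paralogs, and the count model may divide reads between them. Fads2, a desaturase of polyunsaturated chains, was at 0.130 ± 0.0557 FPKM in old libraries against 0.297 ± 0.107 FPKM in the young ones (SD, n = 3 each), while its partner enzyme Fads1 had a mean of 6.07 FPKM.

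The central comparison asked whether these genes differ in level between stimulated cells of old and young mice. With all 6 libraries, none of the 32 tested genes was called at an adjusted p under 0.05 in edgeR, DESeq2 or limma, where edgeR called 0.875% of 10509 genes. At an unadjusted p under 0.05 there were 4 genes in each of the 3 tools. In edgeR these were Acat2, Mvk, Mvd and Dhcr7, all lower in old libraries, that is 4 of 32, against 3.96% of all genes lower and 6.69% higher at that level. Values of old and young libraries did not overlap for 5 genes that were lower in old (Acat2, Mvk, Mvd, Sc5d and Srebf2; all genes, 6.54%) and 1 that was higher (Insig2; all genes, 9.89%). Of the 18 sterol enzymes 17 had a negative log2 difference, with a median of -0.28, beside a median of -0.03 over all genes tested. In limma 14 of the 18 were negative, and 12 to 18 were negative in edgeR when 1 library was left out. The 8 tested fatty acid enzymes had a median of -0.05, with 5 negative and 3 positive.

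**Figure D1:**
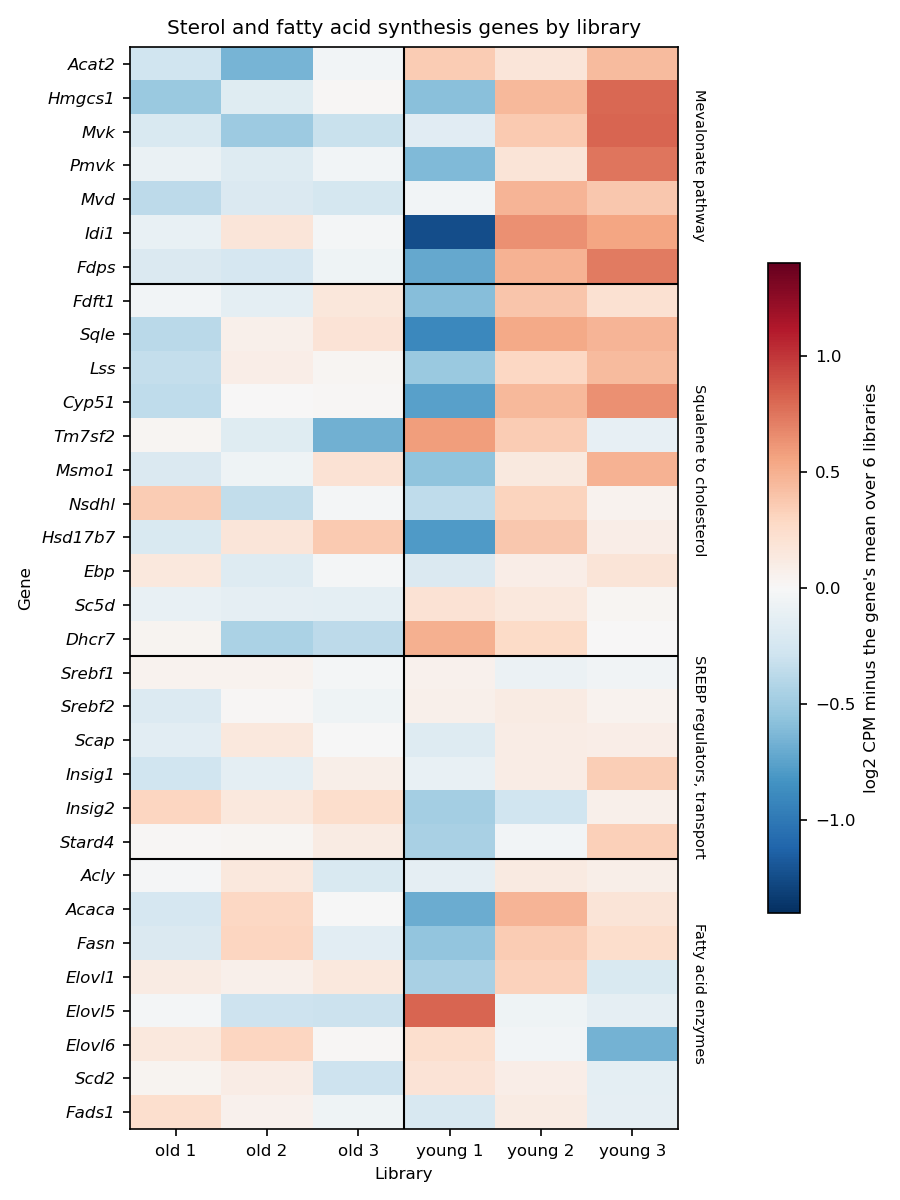
Heat map of the 32 tested genes (rows, by role) in the 3 old and 3 young libraries (columns), coloured by log2 CPM minus the gene's mean over the 6 libraries. Young replicate 1 is the lowest library for 12 of the 18 sterol enzymes. The old libraries lie between it and young replicates 2 and 3 for Hmgcs1, Pmvk, Idi1, Fdps, Fdft1, Sqle, Lss and Cyp51.

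The division within the young group was the main feature of the sterol enzymes. Young replicate 1 was the lowest of the 6 libraries for 12 of 18 sterol enzymes (66.7%), for 4 of 8 fatty acid enzymes and for 32.8% of all genes tested. Young replicates 2 and 3 were both above all 3 old libraries for 12 of 18 sterol enzymes and for 0 of 8 fatty acid enzymes, where 23.2% of all genes showed this order. The sterol enzymes so counted were not all the same, and both patterns held only for Hmgcs1, Pmvk, Idi1, Fdps, Fdft1, Sqle, Lss and Cyp51. In the fit on the 5 other libraries, edgeR called 6 of the 32 genes lower and 0 higher, when 2.98% of all genes were called lower and 5.86% higher. The 6 genes were Hmgcs1, Mvk, Mvd, Idi1, Fdps and Cyp51, all of them sterol enzymes and 5 of them in the mevalonate pathway. Young replicate 1 was the lowest young library for each of these genes, so leaving it out narrowed their young spread. Over the whole table calls rose from 92 with all libraries to 929 in that fit. That fit has 3 old and 2 young libraries, and leaving out any other library instead gave 0 calls among the 32 genes, with 0 to 2 at an unadjusted p under 0.05. Those fits called only 0 to 9 of the 10509 genes, so their 0 says nothing particular about these 32. DESeq2 on the same 5 libraries called 7 genes, adding Sqle, and limma on log2(FPKM + 1) called 5, all of the 6 but Idi1. All of these were lower in old, where DESeq2 called 7.62% of all genes lower and limma 2.37%.

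The mevalonate pathway begins with Acat2, a thiolase that joins acetyl-CoA units, and Hmgcs1, which makes HMG-CoA. Acat2 had 12.8, 9.88 and 15.1 CPM in old libraries, against 19.8, 17.4 and 21.0 CPM in young libraries. All young values lay above all old ones, young replicate 1 included, and the log2 difference was -0.63 ± 0.21 (SE, n = 3 each; adjusted p = 0.315 in edgeR). Hmgcs1 had 72.0, 91.6 and 104.5 CPM in old libraries, against 68.8, 142 and 180 CPM in young libraries. Here young replicate 1 lay below every old library and the other young ones above them. Its log2 difference was -0.54 ± 0.34 with all libraries (adjusted p = 0.681 in edgeR) and -0.85 ± 0.18 without young replicate 1, or 1.80-fold lower in old (adjusted p = 0.0273 in edgeR).

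Mevalonate is then phosphorylated by Mvk and Pmvk and decarboxylated by Mvd. Mvk had 9.60, 7.78 and 8.96 CPM in old libraries, against 9.95, 14.4 and 19.5 CPM in young libraries. The groups did not overlap, but the lowest young and highest old library were close. Mvk had a log2 difference of -0.73 ± 0.28 (adjusted p = 0.389 in edgeR), and of -0.94 ± 0.21 without young replicate 1, the largest of the 32 genes in that fit (adjusted p = 0.0306 in edgeR). Mvd had 11.4, 12.7 and 12.4 CPM in old libraries, against 14.3, 20.3 and 19.1 CPM in young libraries. These groups too did not overlap, with a log2 difference of -0.56 ± 0.20 (adjusted p = 0.349 in edgeR), and of -0.70 ± 0.16 without young replicate 1 (adjusted p = 0.0329 in edgeR). Pmvk ranged from 14.3 to 15.7 CPM in old and from 10.5 to 27.1 CPM in young libraries, and was not called in either fit. The values of Pmvk in young libraries enclosed those of the old ones.

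The isoprenoid steps follow. Idi1, which isomerises isopentenyl diphosphate, had 26.0, 31.4 and 27.4 CPM in old libraries, against 11.8, 43.5 and 41.1 CPM in young libraries. Young replicate 1 lay far below the old libraries and the other young ones above them. The log2 difference of Idi1 was -0.18 ± 0.44 (adjusted p = 0.952 in edgeR), and -0.58 ± 0.14 without young replicate 1 (adjusted p = 0.0421 in edgeR). The direction of Idi1 turned without young replicate 2 (0.098) or young replicate 3 (0.023), and with all libraries in limma on log2(FPKM + 1) (0.013) and with a replicate block (0.0046). Fdps, which makes farnesyl diphosphate for sterols and for protein prenylation, had 63.0, 61.6 and 69.3 CPM in old libraries, against 43.9, 101 and 120 CPM in young libraries. The old libraries were close to each other and stood between the young ones. Fdps had a log2 difference of -0.45 ± 0.34 (adjusted p = 0.758 in edgeR), and of -0.77 ± 0.13 without young replicate 1, or 1.71-fold lower in old (adjusted p = 0.0136 in edgeR). All 7 genes of the mevalonate pathway were negative in both fits, with medians of -0.54 in the 6 libraries and -0.70 in the 5 left without young replicate 1, and all 7 had young replicates 2 and 3 above the 3 old libraries.

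**Figure D2:**
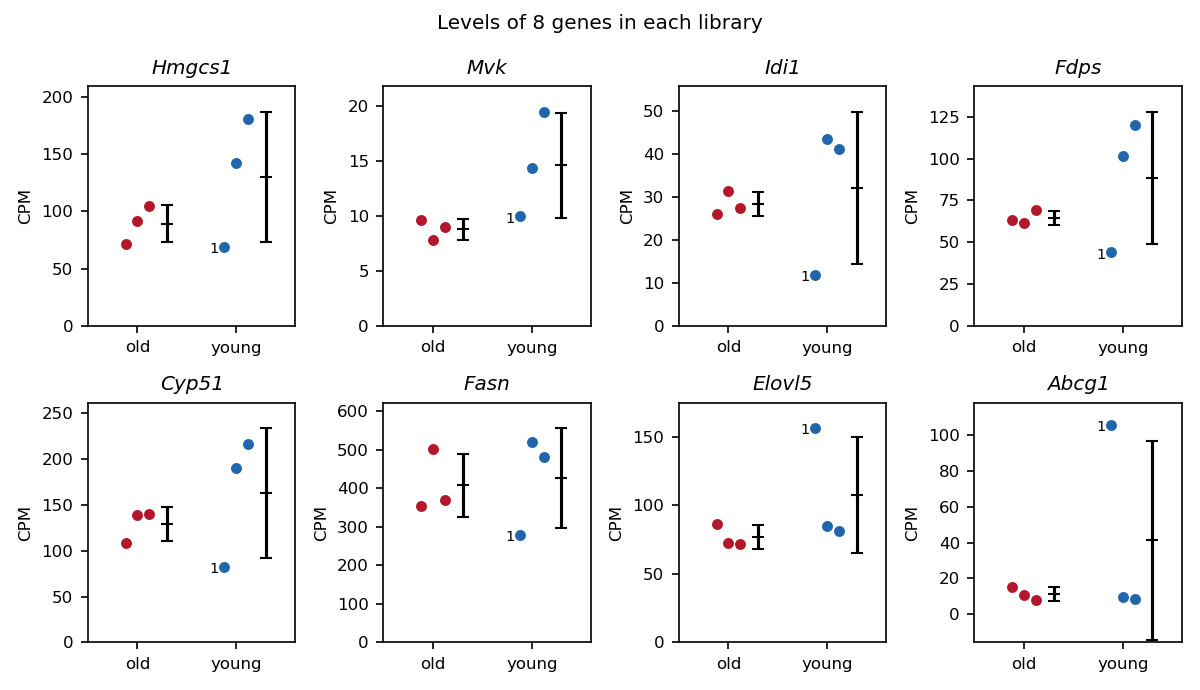
CPM of 8 genes in each of 3 old (red) and 3 young (blue) libraries, with the mean and SD of each group beside the points, each panel on its own axis and young replicate 1 numbered. Young replicate 1 is the lowest library for Hmgcs1, Idi1, Fdps, Cyp51 and Fasn and the highest for Elovl5 and Abcg1, and old Mvk values of 7.78 to 9.60 CPM all lie below the young ones.

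From squalene onward the same order of libraries held for the first enzymes and was lost further down. Fdft1, the squalene synthase, had 60.3, 56.2 and 68.8 CPM in old libraries, against 41.0, 80.7 and 71.7 CPM in young libraries. Sqle, the squalene epoxidase that limits the later pathway, had 46.2, 63.1 and 68.5 CPM in old libraries, against 32.1, 86.6 and 83.1 CPM in young libraries. For both genes the old libraries lay between young replicate 1 and the other young libraries. Neither was called by edgeR in either fit, and without young replicate 1 the log2 difference of Sqle was -0.52 ± 0.17 (adjusted p = 0.0981 in edgeR) and that of Fdft1 -0.30 ± 0.13 (adjusted p = 0.185 in edgeR). Lss, which closes the ring to lanosterol, ranged from 25.6 to 34.5 CPM in old and from 22.6 to 44.0 CPM in young libraries, in the same order and without a call. Cyp51, the lanosterol demethylase, had 108, 139 and 140 CPM in old libraries, against 82.0, 189 and 216 CPM in young libraries. The old libraries again stood between, with a log2 difference of -0.33 ± 0.34 (adjusted p = 0.842 in edgeR), and of -0.65 ± 0.14 without young replicate 1, or 1.57-fold lower in old (adjusted p = 0.0319 in edgeR).

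Of the enzymes that reshape lanosterol into cholesterol, Msmo1, a sterol methyl oxidase, had 61.9 to 81.6 CPM in old and 48.3 to 99.5 CPM in young libraries. Nsdhl and Hsd17b7, which act with it to remove methyl groups, had 20.4 to 33.1 and 14.7 to 21.9 CPM in old libraries, against 20.3 to 32.1 and 9.78 to 22.1 CPM in young libraries. Ebp, a sterol isomerase, had 35.9 to 45.0 CPM in old and 35.3 to 46.2 CPM in young libraries. For these 4 genes young replicate 1 was the lowest of the 6 libraries, the groups overlapped also without it, and none was called in either fit. Dhcr7, Sc5d and Tm7sf2 behaved in another way, since young replicate 1 was the highest of the 6 libraries for each. Dhcr7, which catalyses the last step to cholesterol, had 30.9, 22.1 and 23.4 CPM in old libraries, against 42.4, 36.1 and 30.3 CPM in young libraries. Its log2 difference of -0.51 ± 0.21 (adjusted p = 0.434 in edgeR) was -0.38 ± 0.18 without young replicate 1 (adjusted p = 0.215 in edgeR). Sc5d, a sterol desaturase, had 53.1, 52.3 and 52.0 CPM in old libraries, against 65.9, 63.6 and 58.2 CPM in young libraries. Its groups did not overlap, and the log2 difference of -0.25 ± 0.14 was small (adjusted p = 0.611 in edgeR). Tm7sf2 had 2.79 to 4.53 CPM in old and 4.10 to 6.66 CPM in young libraries and was not called. The 11 genes from Fdft1 to Dhcr7 had a median log2 difference of -0.18 over the 6 libraries. Once young replicate 1 was left out it was -0.33, when all 11 were negative.

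**Figure D3:**
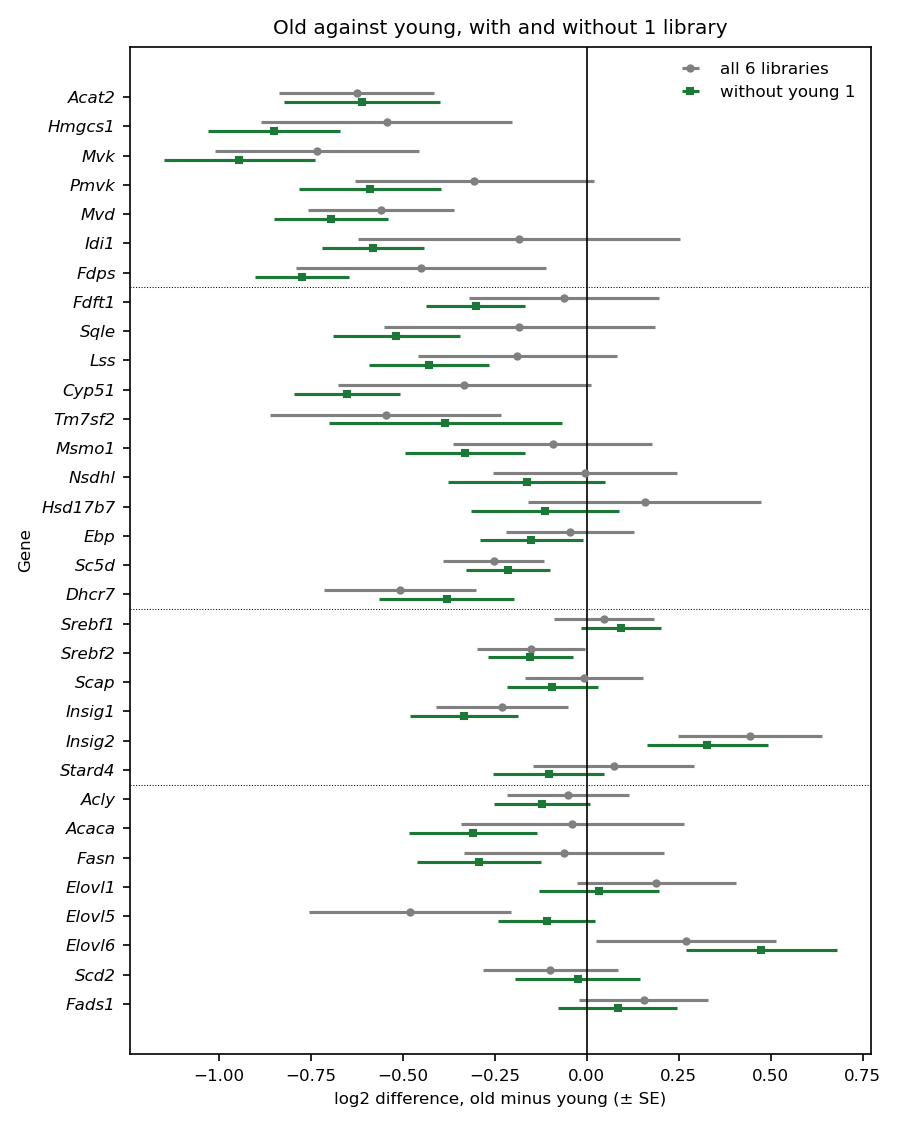
Log2 difference of each tested gene, old minus young, with its SE, from all 6 libraries (grey circles) and without young replicate 1 (green squares). Dotted lines part the mevalonate pathway, the later sterol enzymes, the regulators with Stard4, and the fatty acid enzymes. All 18 green sterol values lie below 0, from -0.94 for Mvk to -0.11 for Hsd17b7.

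None of the 5 regulators was called in either fit. Srebf2 had 316.5, 365 and 348 CPM in old libraries, against 381, 390 and 373 CPM in young libraries. Its groups did not overlap, young replicate 1 was within the range of the young group, and the log2 difference was -0.15 ± 0.15 (adjusted p = 0.823 in edgeR). Srebf1, which encodes the SREBP tied more closely to fatty acid genes, had 118 to 125 CPM in old and 114 to 126 CPM in young libraries. Scap had 120 to 147 CPM in old and 117 to 142 CPM in young libraries, with a log2 difference of -0.01 ± 0.16. The overlap of Scap between groups was nearly complete. The groups of Srebf1 overlapped only through young replicate 1, at 126 CPM. Its other young libraries, at 114 and 116 CPM, lay below all old ones, an order shown by 24.3% of all genes. Without young replicate 1 the log2 difference of Srebf1 was 0.09 ± 0.11 (adjusted p = 0.612 in edgeR). Insig1, itself an SREBP target, had 61.6, 68.0 and 79.2 CPM in old libraries, against 69.6, 80.6 and 94.9 CPM in young libraries. Young replicate 1 lay within the old range, and the log2 difference of Insig1 was -0.23 ± 0.18, or -0.33 ± 0.15 without that library (adjusted p = 0.767 and 0.184 in edgeR). Insig2, which is not induced by SREBPs in the way Insig1 is, had 21.7, 19.5 and 20.8 CPM in old libraries, against 12.6, 14.5 and 18.4 CPM in young libraries. It was the only 1 of the 32 genes with all old libraries above all young ones, at a log2 difference of 0.44 ± 0.20 (adjusted p = 0.490 in edgeR). Stard4, which carries sterol between membranes, had 32.4 to 34.8 CPM in old and 23.4 to 40.4 CPM in young libraries and was not called. Srebf1 counts were divided over 7 transcripts, the largest holding 43.4% of the gene's FPKM, so the forms that start at different promoters were not compared.

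With all 6 libraries, fatty acid enzymes were close to equal in the groups, apart from single libraries. Fasn, the fatty acid synthase, had 354, 502 and 368 CPM in old libraries, against 278, 519 and 481 CPM in young libraries. Acaca, the acetyl-CoA carboxylase that commits acetyl-CoA to this branch, had 85.4, 123 and 100.1 CPM in old libraries, against 62.2, 141 and 114 CPM in young libraries. In both, young replicate 1 was lowest of all, while old replicate 2 lay above the other old libraries and above young replicate 3. In the 5 remaining libraries the log2 differences of Fasn and Acaca were -0.29 ± 0.17 and -0.31 ± 0.17 (adjusted p = 0.286 and 0.281 in edgeR). Acly had 197 to 253 CPM in old and 210 to 249 CPM in young libraries.

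Elongases and desaturases did not follow the order of libraries seen in the mevalonate pathway. Elovl5, an elongase of polyunsaturated chains, had 86.8, 72.4 and 71.9 CPM in old libraries, against 156, 84.9 and 81.3 CPM in young libraries. Young replicate 1 alone stood high, and the log2 difference of -0.48 ± 0.27 became -0.11 ± 0.13 without it (adjusted p = 0.634 and 0.622 in edgeR). Elovl6, which extends palmitate, had 30.7, 34.2 and 28.0 CPM in old libraries, against 32.5, 27.1 and 17.5 CPM in young libraries. Setting young replicate 1 aside, all old libraries of Elovl6 lay above the young ones, at a log2 difference of 0.47 ± 0.21 (adjusted p = 0.177 in edgeR). Elovl1 had 132 to 139 CPM in old and 92.0 to 158 CPM in young libraries. Scd2 had 20.6 to 26.9 CPM in old and 22.9 to 28.8 CPM in young libraries, and Fads1 had 19.8 to 24.3 and 17.7 to 22.4 CPM. The groups of Elovl1, Scd2 and Fads1 overlapped and none was called in either fit.

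Set side by side, the branches lay closest together in young replicates 2 and 3. The mean log2(CPM + 1) of the 18 sterol enzymes was 4.92, 4.92 and 5.03 in old libraries and 4.73, 5.40 and 5.45 in young libraries. That of the 8 tested fatty acid enzymes was 6.34, 6.45 and 6.23 in old libraries and 6.23, 6.50 and 6.24 in young libraries. Sterol minus fatty acid, within a library and on the log2 scale, was -1.42, -1.53 and -1.20 in old libraries, against -1.51, -1.10 and -0.79 in young libraries. Only young replicates 2 and 3 lay above all old libraries in this difference, and young replicate 1 lay within the old range. The mean over groups was -1.38 ± 0.17 in old libraries against -1.13 ± 0.36 in the young ones (SD, n = 3 each), a gap smaller than the spread of the young group. The medians of the fitted differences were -0.28 for sterol and -0.05 for fatty acid enzymes over the 6 libraries. They were -0.47 and -0.07 when young replicate 1 was left out, beside 0.01 over all genes. The fatty acid list was not uniform in that fit. Its median was -0.29 for Acly, Acaca and Fasn and 0.03 for the 5 tested elongases and desaturases, beside -0.33 for the sterol enzymes from Fdft1 to Dhcr7. These are descriptions of lists chosen with earlier results known and carry no test.

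**Figure D4:**
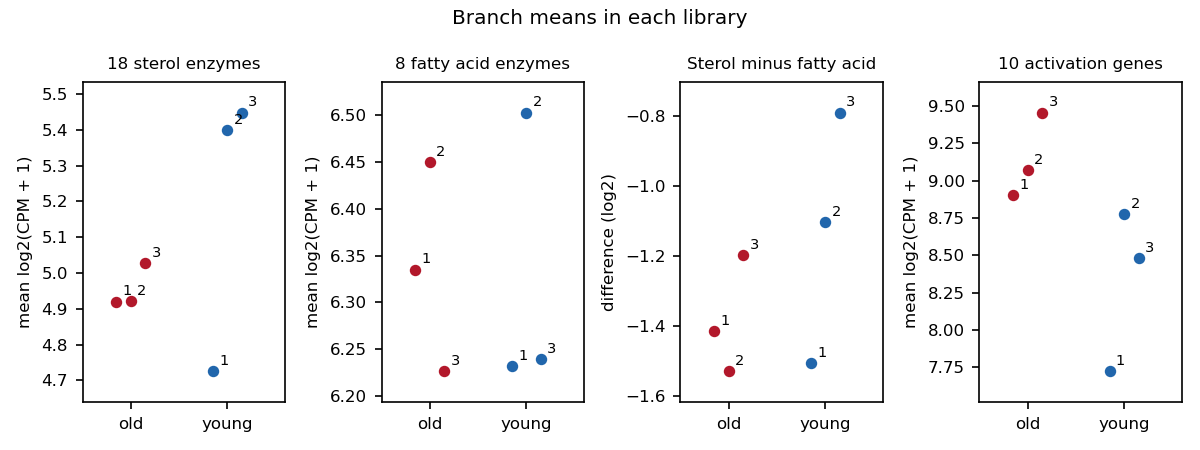
Mean log2(CPM + 1) of the sterol enzymes, of the fatty acid enzymes and of the early activation markers, and the sterol mean minus the fatty acid mean, in each old (red) and young (blue) library with its replicate number; each axis has its own range and none starts at 0. Young replicate 1 is lowest for the sterol enzymes (4.73) and for the activation markers (7.72), and the old libraries are highest for the activation markers.

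Other genes of sterol and lipid handling were read from lists of 88 genes, of which 70 were tested. With all libraries edgeR called 0 of the 70, with 8 higher and 3 lower at an unadjusted p under 0.05. DESeq2 called Sec24d and Mid1ip1 higher and Hacd1 lower (all genes, 3.56% higher and 1.21% lower), and limma called 0. After leaving out young replicate 1 edgeR called 4 higher and 4 lower of the 70, beside 5.86% higher and 2.98% lower of all genes.

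The transporters that export cholesterol, which liver X receptors induce when sterols accumulate, ran the other way in young replicate 1. Abcg1 had 15.3, 10.7 and 7.87 CPM in old libraries, against 105.6, 9.67 and 8.67 CPM in young libraries. Abca1 was under the minimum of 1 FPKM and had 0.546, 1.404 and 0.820 CPM in old libraries, against 6.83, 1.34 and 0.982 CPM in young libraries. The library lowest in most sterol enzymes was the highest in both transporters, and the values of old and young overlapped in the other 5 libraries. This rests on 1 library, which also stood apart in Il7r and in the activation markers, and its cause was not tested. That library lay above both other young libraries for 45.7% of all genes tested, so lying above them is not particular to these transporters. Without young replicate 1 Abcg1 had a log2 difference of 0.30 ± 0.29 (adjusted p = 0.529 in edgeR), and Abca1 was not tested. Soat2, which esterifies cholesterol, had 12.8, 17.0 and 22.1 CPM in old libraries, against 13.4, 7.63 and 6.47 CPM in young libraries. Its log2 difference was 0.91 ± 0.34 with all libraries (adjusted p = 0.375 in edgeR). Without young replicate 1 it was called higher, at 1.29 ± 0.26 on the log2 scale (adjusted p = 0.0246 in edgeR).

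Among genes that feed or use fatty acids, Mid1ip1, an activator of acetyl-CoA carboxylase, had 39.2, 39.1 and 49.9 CPM in old libraries, against 13.8, 21.9 and 21.6 CPM in young libraries. Its groups did not overlap, at a log2 difference of 1.16 ± 0.23 with all libraries (adjusted p = 0.0869 in edgeR and 0.000757 in DESeq2) and 0.97 ± 0.16 without young replicate 1 (adjusted p = 0.0134 in edgeR). Dgat1 and Dgat2, which complete triglyceride synthesis, had 35.7 to 51.4 and 11.95 to 15.1 CPM in old libraries, against 23.2 to 31.4 and 5.67 to 9.19 CPM in young libraries. The groups did not overlap for either gene, and neither was called with all libraries (adjusted p = 0.236 and 0.234 in edgeR). Of these genes edgeR called only Dgat1 without young replicate 1 (log2 difference 0.81 ± 0.18, adjusted p = 0.0327 in edgeR). DESeq2 on the same libraries called both. Sec24d, a coat protein of vesicles that leave the endoplasmic reticulum, had 13.7 to 14.5 CPM in old and 4.62 to 9.55 CPM in young libraries, with a log2 difference of 1.02 ± 0.29 (adjusted p = 0.214 in edgeR and 0.0290 in DESeq2) and of 1.32 ± 0.22 without young replicate 1 (adjusted p = 0.0144 in edgeR). Acadm, a dehydrogenase of fatty acid oxidation, had 34.8, 32.1 and 32.1 CPM in old libraries, against 38.0, 52.0 and 72.3 CPM in young libraries, and Hacd1, an elongation-cycle dehydratase, had 1.26 to 2.13 and 1.97 to 8.38 CPM. Acadm and Hacd1 were called lower without young replicate 1 (adjusted p = 0.0157 and 0.00899 in edgeR). So was Agpat5, an acyltransferase of phospholipid synthesis (adjusted p = 0.0468 in edgeR). With all libraries the adjusted p in edgeR was 0.315 for Acadm, 0.259 for Hacd1 and 0.828 for Agpat5. For Hacd1 it was 0.0489 in DESeq2.

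Some of the genes share exon sequence with a neighbour in GENCODE M21 (GRCm38). Strand cannot assign reads where the neighbour is on the same strand, and can do so on the opposite strand only where it was used. Fdps shares 1124 bases with a same-strand predicted gene, and Tm7sf2 shares 532 bases with Vps51 on its own strand. On the opposite strand Fdft1 shares 774 bases with Ctsb, Hmgcs1 shares 557 bases with an antisense transcript and Cyp51 shares 166 bases with Akap9. Scap, Lss and Idi1 share 985, 381 and 323 bases with other opposite-strand transcripts.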

How the data were processed

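Total RNA of CD4+ T cells was sequenced in 3 old and 3 young libraries. Per the file headers, the table that the authors deposited lists 66712 RefSeq transcripts, each with its expected count and its FPKM in every library. The submitters' processing notes name Bowtie, RSEM and the mouse build GRCm38, without versions; strand and filters are not given there. RSEM shares reads that fit several transcripts, so transcript values are estimates.

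Counts and FPKM were summed per Entrez gene (19977 genes, 19830 with a symbol in the RefSeq table of GRCm38) and counts rounded. No libraries agreed within sampling noise (smallest chi-square per degree of freedom 26.4). Genes with a mean of at least 1 FPKM (10509) were tested with edgeR 4.0.16 in R 4.3.3 (TMM, quasi-likelihood, no block) and p-values were adjusted over all of them by Benjamini-Hochberg, called at 0.05; the SE is the log2 difference over the square root of F. DESeq2 1.42.0 and limma 3.58.1 were alternatives, and all were tested on simulated data. Those data held no library that stood apart, so that test does not cover the case of young replicate 1. The members, lists and tests were chosen with earlier results of these data known. Genes named outside the 34 were called ones, the 2 smallest p per list, and a few fixed by name, of which Abca1 is given and the others are not reported here; Agpat5 was called without young replicate 1 and was named after its values were seen, and results without young replicate 1 in DESeq2 and limma were added after seeing the data. Figures used matplotlib 3.10.9.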

Additional observations from a re-analysis of the deposited data

How the results depend on the processing

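Calls rested on the libraries more than on the method. The number of genes called over the whole table, 92 with all libraries, was 202 without a filter, 55 with a mean of at least 5 FPKM and 501 in DESeq2, and 0 to 929 when 1 library was left out. Among the 32 genes it was 0 under RLE or upper quartile factors, other filters, robust edgeR, DESeq2 and limma, and 0 to 6 when 1 library was left out, the 6 being without young replicate 1. Without young replicate 1, DESeq2 called 1792 genes and 7 of the 32, and limma 804 and 5. The sterol median of -0.28 ranged from -0.47 (without young replicate 1) to -0.05 (without young replicate 3), the fatty acid median from -0.16 (without old replicate 2) to 0.16 (without young replicate 2), and sterol minus fatty acid, -0.23 with all libraries, from -0.41 to -0.066; without young replicate 1 it was -0.40 in DESeq2 and -0.41 in limma. The cause was not tested.

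Deviations of same-numbered old and young libraries correlated at 0.22, -0.03 and 0.18, and not every library correlated best with its own number. With 3 libraries in each group these values cannot decide whether the numbers pair the libraries, and pairing is not stated in the labels. With a replicate block 119 genes and 0 of the 32 were called, and the medians were -0.22 and -0.003 (sterol and fatty acid). No call among the 32 changed with the block.

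Signs changed for genes not called with all libraries, among them Idi1, which was called without young replicate 1. Without a filter Nsdhl was 0.017 and Scap 0.019. In limma with pseudocounts of 1 and 0.1, Idi1 was 0.013 and 0.037, Fdft1 0.0033 and 0.0063, Nsdhl 0.0035 and 0.0034, Scap 0.0040 and 0.0040 and Acaca 0.024 and 0.031. With the block Idi1 was 0.0046 and Acaca 0.022. Without young replicate 1, Hsd17b7 was -0.12 in DESeq2 and -0.071 in limma, Stard4 -0.11 and -0.056, and Scd2 0.0027 in limma. With 1 library left out, log2 differences ran from -0.59 to 0.056 for Pmvk, -0.58 to 0.10 for Idi1, -0.30 to 0.13 for Fdft1, -0.52 to 0.041 for Sqle, -0.33 to 0.15 for Msmo1, -0.21 to 0.16 for Nsdhl, -0.11 to 0.41 for Hsd17b7, -0.15 to 0.030 for Ebp, -0.095 to 0.060 for Scap, -0.10 to 0.28 for Stard4, -0.14 to 0.037 for Acly, -0.31 to 0.22 for Acaca, -0.29 to 0.10 for Fasn and -0.19 to 0.0087 for Scd2. Depth was not limiting for the 32 tested genes except Tm7sf2, with 51 to 115 counts per library; Fads2 had 2 to 10 counts and Scd1 6 to 30.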
